A study of Mus musculus with 8 samples.

Results

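Transcripts of 8 genes for poly(A)-binding proteins, their interacting proteins and La-related proteins (LARPs) were followed across polysome fractions of the mouse main olfactory epithelium: Pabpc1, Pabpc4, Pabpn1, Paip1, Paip2, Larp1, Larp4 and Larp4b. They are defined by their gene symbols and are 8 of the 21765 gene symbols in the deposited table. All 8 passed the filter on low values (a mean of at least 1 TPM, transcripts per 1000000). The study asked how polysome-associated RNA changes in the olfactory epithelium when Mex3a, a gene for an RNA-binding protein, is deleted. Wild-type (WT) mice carried floxed Mex3a, as Mex3a flox/flox or Mex3a flox/+, with no Cre listed; which of these genotypes a given library had is not stated. Conditional knockout (cKO) mice carried Mex3a flox/flox with Cre. All groups shared dissection into 100 µg/mL cycloheximide, which holds ribosomes on mRNA, before lysates were spun through sucrose gradients. About 42 fractions of 350 µL were taken, and 50 µL of each was pooled into early, lighter polysomes (fractions 27 to 34) or late, heavier polysomes (fractions 35 to 42). WT early, WT late, cKO early and cKO late had 2 libraries each, and the early and late library of a number came from 1 lysate by the library names. Age, sex and the number of animals in a lysate are not given in the labels used here, so p-values measure only the spread between these samples, which may be technical. The WT early library of replicate 2 has the genotype tag of the cKO group against its title; it was grouped by title.

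The poly(A) tail of an mRNA is coated by poly(A)-binding proteins. In the cytoplasm Pabpc1 and its relative Pabpc4 bind the tail and, through eIF4G, the cap complex, while Pabpn1 binds the tail in the nucleus and stimulates its synthesis. Paip1 binds cytoplasmic poly(A)-binding protein and promotes translation, and Paip2 displaces that protein from poly(A) and represses it. LARPs share an RNA-binding La module: Larp1 binds mRNAs that start with a pyrimidine tract (5′ terminal oligopyrimidine, or TOP, mRNAs, which include those of ribosomal proteins and Pabpc1) and is a target of the growth-regulating kinase complex mTORC1, and Larp4 and Larp4b bind poly(A)-binding protein and stabilise mRNAs. In a gradient a transcript is found deeper the more ribosomes it carries, and a long coding sequence has room for more of them.

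A TOP mRNA begins with a cytosine followed by pyrimidines, so transcription starts of 5 members are shown first. RefSeq windows on GRCm38.p6 (the mm10 build of the submitters' processing notes) were matched by symbol for 6 of the 8 members, all but Pabpc1 and Paip2; 5 of these 6 are shown, so the stretches give no share over the members. Each stretch has 30 bases, 15 before the annotated start and 15 from it on, on the plus strand, and the 5 genes shown lie on that strand. Capitals mark a run of at least 5 pyrimidines (C or T) that begins with C, where that C lies within 10 bases of the start.
Paip1, chr13:119428585-119428614: accgtcagtctcgcaCTTTTCTCCggaggg
Paip1, its other listed start, chr13:119428887-119428916: cggggggagcgggacttaagggagagcgtc
Larp1, chr11:58009049-58009078: cggctaggcgcgccggagCCTTCTgcccgg
Larp4, chr15:99972765-99972794: tccagaaccggaaacagttgttgCTTCCCg
Larp4b, chr13:9093866-9093895: ggccgcgcgggggtgggaCTTCCgcagggc
Pabpn1, chr14:54894128-54894157: cgatcggcgggccccagtctgagcggcgat
The run of Paip1 held 9 pyrimidines and began exactly at the first listed start (position 1). Those of Larp1 and Larp4b began at position 4 and that of Larp4 at position 9, counted from the start. Of 32851 mouse starts in the same table, 29.7% held such a run within 10 bases and 33.8% held one when the other strand was read. Within 3 bases the shares were 9.96% and 12.3%, and of the starts shown the first Paip1 start alone met this narrower limit. These matches describe letters at annotated starts and were not measured in the libraries.

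The genes lie at separate loci, by GENCODE on GRCm38. Pabpc1 (ENSMUSG00000022283) spans 36595661 to 36609668 on chromosome 15, minus strand, and the other 7 are on plus strands. Pabpc4 (ENSMUSG00000011257) spans 123262351 to 123298925 on chromosome 4, and Pabpn1 (ENSMUSG00000022194) 54892500 to 54898169 on chromosome 14. Paip1 (ENSMUSG00000025451) spans 119428601 to 119458218 on chromosome 13, and Paip2 (ENSMUSG00000037058) 35598617 to 35617187 on chromosome 18. Larp1 (ENSMUSG00000037331) spans 58009064 to 58062034 on chromosome 11, Larp4 (ENSMUSG00000023025) 99970065 to 100016358 on chromosome 15, and Larp4b (ENSMUSG00000033499) 9093881 to 9174451 on chromosome 13. Pabpn1 shares 5638 nt on its own strand with the gene model Gm20521, which has no row in the table, so reads of the overlap cannot be assigned between them here. Paip2 overlaps Slc23a1 on the opposite strand (2.27 to 6.44 TPM over the libraries) and Larp4 overlaps the antisense gene 2310068J16Rik (0.407 to 2.60 TPM). Whether counting used strand is not given in the sources used here. Pabpc1 has close relatives in the mouse genome, intronless copies among them, and how the counting treated reads that match several places is likewise not given.

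Depth inferred from the steps of the TPM values was 7776792 to 12771079 reads per library, lowest in cKO late replicate 2, and 133 to 5965 reads lay behind each member's value. Mex3a stood at 93.2 to 115.6 TPM in the 4 WT libraries and 11.1 to 19.8 TPM in the 4 cKO libraries; the WT library with the conflicting tag held 115.6 TPM. Olfactory neuron genes Omp (2439 to 5393 TPM) and Cnga2 (379 to 552 TPM) and the sustentacular cell gene Cyp2g1 (697 to 3419 TPM) were abundant in every library. Marker sums moved with the fraction. The 8 mature neuron markers summed to 10167 to 12514 scaled TPM in early and 6704 to 8020 in late libraries. The 6 sustentacular markers summed to 6428 to 7156 and 8251 to 10290, and the 5 gland markers to 6553 to 11568 and 16308 to 25235. None of these markers was at 0. Abundant genes weigh most in a sum, and some markers went against theirs. Late minus early, averaged over genotypes, the mature neuron markers Adcy3 and Ano2 changed by 1.58 and 1.23 log2. The sustentacular marker Cbr2 changed by -0.51 log2. The changes of the other markers are not given. By the library names, the early and late library of a number are pools of 1 lysate, and so of the same cells. Between WT and cKO, fewer cells of a type and less RNA per cell cannot be told apart in such bulk samples. The part of cell makeup in the changes below was not tested. Marker sums were also compared between genotypes: of 10 lists, the WT and cKO libraries did not overlap for 4 in early and 7 in late polysomes. Of single genes, 37.1% in early and 40.7% in late polysomes did not overlap. A sum does not show each marker. In late polysomes gland markers summed to 16308 to 19501 in WT and 22397 to 25235 in cKO, and sustentacular markers to 8251 to 8946 and 9345 to 10290. The sum of the 4 endothelial markers was also higher in cKO late libraries (151 to 153 against 131 to 132). The sum of the 6 immune markers was higher in cKO in both fractions. It was 445 to 475 against 332 to 378 in early and 332 to 348 against 261 to 295 in late libraries. The 1 erythroid marker in the table was higher in cKO in both fractions too. Sums for immature neurons and ensheathing glia were lower in cKO in both fractions. In late libraries they were 2902 to 3091 against 3213 to 3498 and 502 to 515 against 597 to 747.

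Between late and early polysomes, averaged over genotypes, all 5 poly(A)-binding and PAIP transcripts were lower in late polysomes and all 3 LARP transcripts were higher. Paip2 changed most: its level in late polysomes was 0.349 times that in early polysomes (95% interval 0.294 to 0.414). The level of Larp1 in late polysomes was 1.62 times that in early polysomes (95% interval 1.45 to 1.82). Levels are scaled TPM, which corrects for transcript length and for library composition, so they can be compared between genes. They are relative to the other RNA of a library, so lower or higher in late polysomes does not count molecules. Changes are differences of log2(scaled TPM + 1) with the standard error (SE) from limma's moderated model, and adjusted p is by Benjamini-Hochberg over 16097 genes with a threshold of 0.05. By this test 8 of 8 members changed, 3 up and 5 down, beside 68.9% of all genes tested (34.3% up and 34.6% down). The 4 early and 4 late libraries did not overlap for 8 of 8 members, beside 62.5% of all genes. Most genes of the table changed between fractions, so a count of 8 says little about these genes by itself; their sizes and directions follow.

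**Figure D1:**
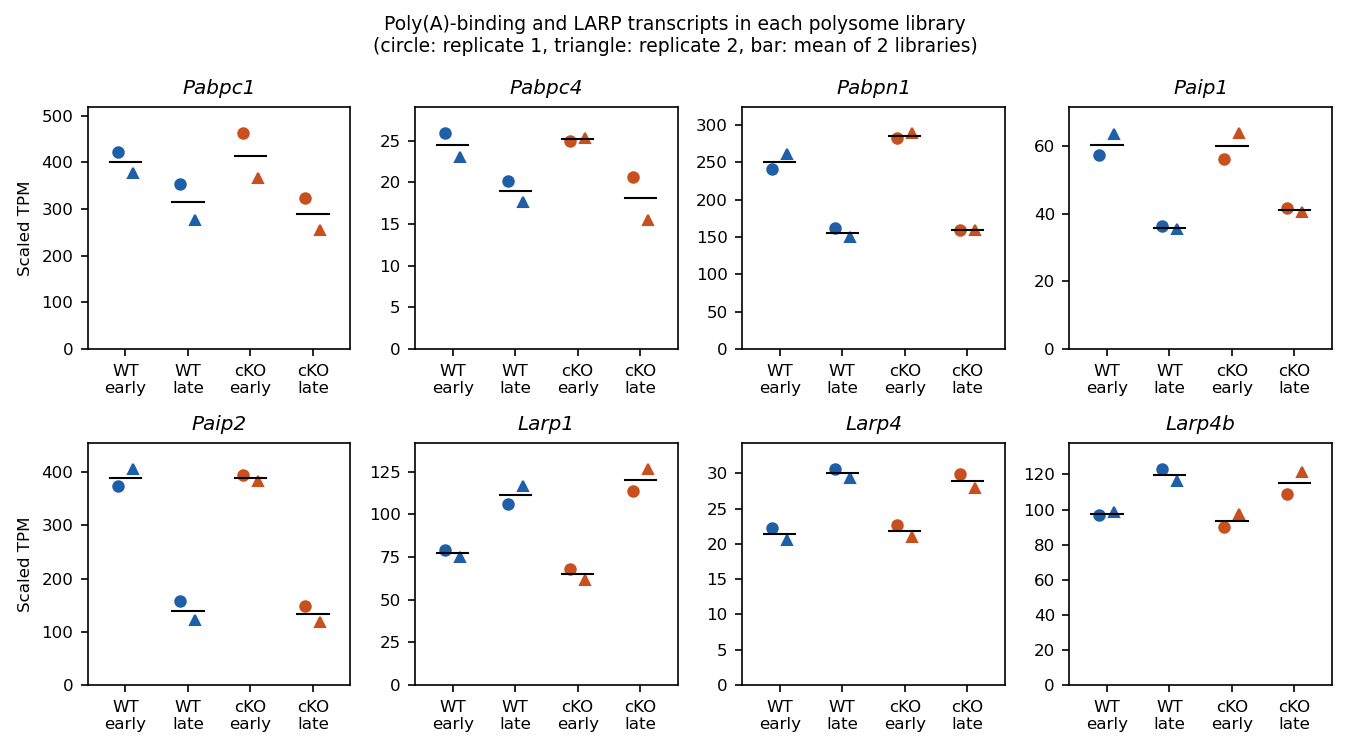
Scaled TPM (vertical axes from 0, 1 scale per gene) of each member in WT early, WT late, cKO early and cKO late polysomes, with circles for replicate 1, triangles for replicate 2 and a bar at the mean of 2 libraries. Paip2 fell from between 373 and 406 in early to between 118 and 158 in late libraries, while Larp1 rose from between 61.6 and 79.3 to between 106 and 127.

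Among the cytoplasmic poly(A)-binding proteins, Pabpc1 was the most abundant member. In WT its scaled TPM went from 421 and 378 in early to 354 and 277 in late polysomes (lysates 1 and 2), and in cKO from 463 and 366 to 324 and 255. The lowest early library (366) and the highest late library (354) lay close together. The average change was -0.43 log2 (SE 0.12, adjusted p = 0.0136). It no longer passed under quantile normalization (-0.11, adjusted p = 0.434) or without WT late replicate 2 (-0.34, adjusted p = 0.0554). Pabpc4, the inducible relative, was at a small fraction of the Pabpc1 level, going from 25.9 and 23.0 in early to 20.1 and 17.7 in late polysomes of WT, and from 24.99 and 25.3 to 20.7 and 15.4 in cKO. It fell by 0.41 log2 (SE 0.11, adjusted p = 0.00822). Both changes lay inside the middle 50% of the transcriptome, with 30.8% of all genes below Pabpc1 and 31.6% below Pabpc4.

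Pabpn1, the nuclear poly(A)-binding protein, went from 241 and 262 scaled TPM in early to 162 and 149 in late polysomes of WT, and from 283 and 290 to 159.9 and 159.96 in cKO. The late libraries of both genotypes sat within a narrow band, well under all early libraries. Pabpn1 fell by 0.76 log2 (SE 0.067, adjusted p = 3.27e-05), and 16.9% of all genes had a lower value.

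Both PAIP transcripts were lower in late polysomes. Paip1, the activator, went from 57.2 and 63.5 scaled TPM in early to 36.3 and 35.3 in late polysomes of WT, and from 56.1 and 63.8 to 41.6 and 40.6 in cKO. It fell by 0.63 log2 (SE 0.073, adjusted p = 0.000107). Paip2, the repressor, went from 373 and 406 in early to 158 and 121 in late polysomes of WT, and from 395 and 384 to 147.5 and 118 in cKO. Every early library held more than 2 times the level of every late library. Its change of -1.52 log2 (SE 0.11, adjusted p = 1.96e-05) left 1.60% of all genes lower. In the 4 lysates taken singly, the late share of the summed early and late scaled TPM of Paip2 was 29.8%, 23.0%, 27.2% and 23.5%. Scaled TPM is relative to the other RNA of a library, so these are not shares of Paip2 molecules.

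Among the LARPs, Larp1, which binds TOP mRNAs, went from 79.3 and 75.2 scaled TPM in early to 106 and 116 in late polysomes of WT, and from 68.2 and 61.6 to 114 and 127 in cKO. All late libraries lay above all early ones. It rose by 0.70 log2 (SE 0.073, adjusted p = 6.46e-05), with 85.4% of all genes lower. Larp4 went from 22.2 and 20.5 in early to 30.6 and 29.4 in late polysomes of WT, and from 22.6 and 20.9 to 29.9 and 27.9 in cKO, so that the genotypes overlapped in each fraction. Its rise of 0.43 log2 (SE 0.075, adjusted p = 0.000962) ran from 0.39 to 0.50 over the 4 lysates. Larp4b, its closest relative, went from 96.9 and 98.6 in early to 123 and 117 in late polysomes of WT, and from 90.2 and 97.3 to 109 and 121 in cKO. It rose by 0.29 log2 (SE 0.068, adjusted p = 0.00474), the smallest change of the 8.

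**Figure D2:**
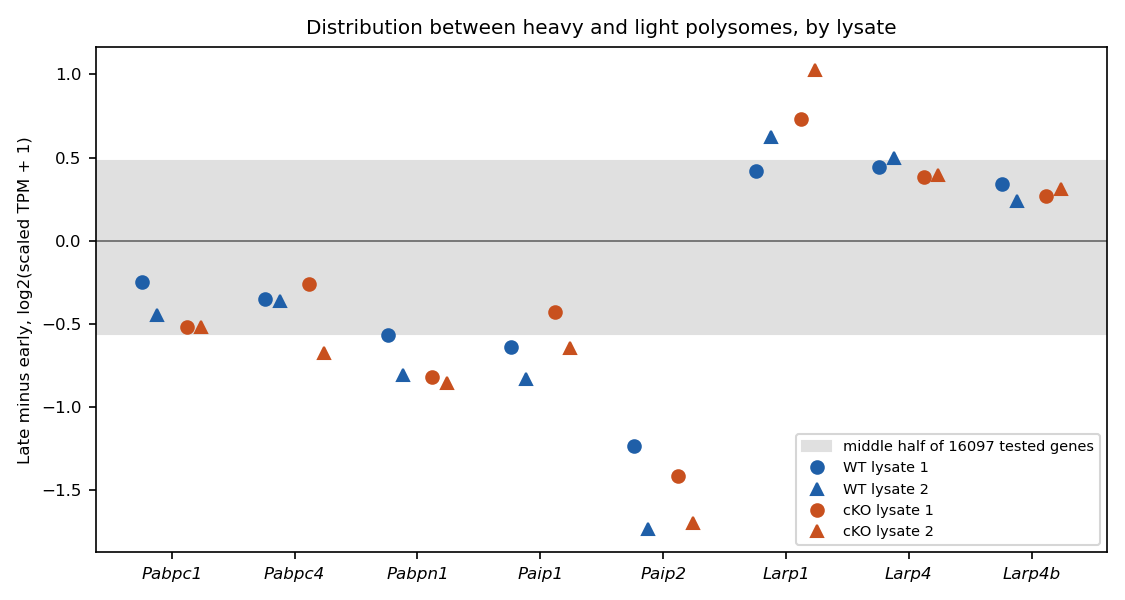
Late minus early log2(scaled TPM + 1) of each member in the 4 lysates (vertical axis), with blue for WT, orange for cKO, circles for lysate 1, triangles for lysate 2 and a grey band for the middle 50% of the 16097 genes tested. All lysates lie below 0 for the 5 poly(A)-binding and PAIP genes, with Paip2 between -1.73 and -1.23, and above 0 for the 3 LARP genes, with Larp1 between 0.42 and 1.03.

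Coding length was set beside these changes, because the fraction change of all genes moved with it. Over 14687 tested genes with a coding length in GENCODE, divided into 10 equal classes by that length, the class with the shortest coding sequences (111 to 555 nt) had a median change of -1.12 log2 and the class with the longest 0.50. Paip2 has a coding sequence of 372 nt, the shortest of the members. It therefore falls in the first class, where 13.6% of genes were lower than its -1.52. Pabpn1 (957 nt) stood against a median of -0.17 in its class and Paip1 (1452 nt) against 0.20. Pabpc1 (1908 nt) stood against 0.28 and Pabpc4 (1980 nt) against 0.37. For all 5 the member was under the median of genes of like coding length: 10.1% of its class lay below Pabpc1, 5.93% below Pabpc4, 9.12% below Pabpn1 and 6.81% below Paip1. The LARPs have longer coding sequences, and lay nearer to genes of their length. Larp1 (3216 nt) had 71.4% of its class below it (median 0.44), Larp4 (2157 nt) 55.8% and Larp4b (2223 nt) 44.1% (median 0.37). Pabpc4, Larp4 and Larp4b fall in the same class (1941 to 2442 nt), at -0.41, 0.43 and 0.29. These ranks are a description over genes, with no test.

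**Figure D3:**
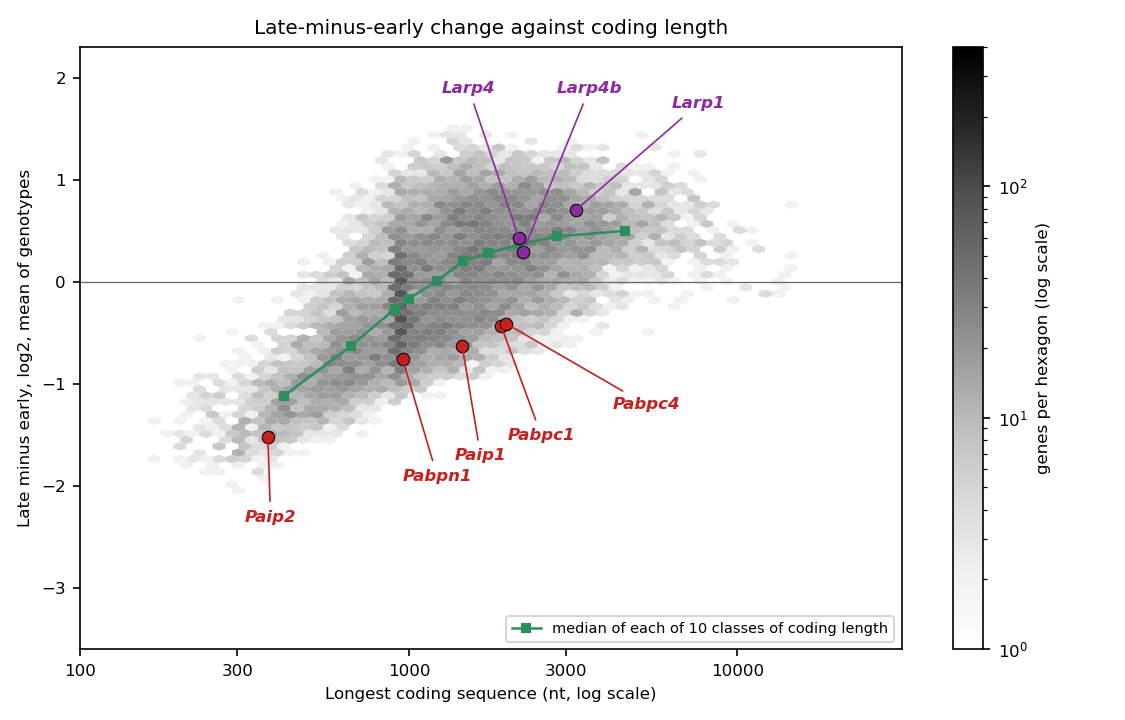
Average late-minus-early log2 change (vertical axis) against the longest coding sequence in nt (horizontal log axis) for 14687 genes, as hexagons shaded on a log scale by the number of genes, with the median of each of 10 length classes in green. The 5 poly(A)-binding and PAIP genes (red) lie under the green line, while of the LARP genes (purple) Larp1 and Larp4 lie above it and Larp4b, at 0.29 against a median of 0.37, under it.

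Within WT alone, 6 of 8 members changed between late and early polysomes, beside 54.8% of all genes. Pabpn1 (-0.68, SE 0.094, adjusted p = 0.000762), Paip1 (-0.73, SE 0.10, adjusted p = 0.00083) and Paip2 (-1.48, SE 0.15, adjusted p = 0.000388) fell. Larp1 (0.52, SE 0.10, adjusted p = 0.00341), Larp4 (0.47, SE 0.11, adjusted p = 0.00606) and Larp4b (0.29, SE 0.096, adjusted p = 0.031) rose. Pabpc1, at -0.35 (SE 0.18, adjusted p = 0.127), and Pabpc4, at -0.36 (SE 0.15, adjusted p = 0.0763), did not pass. With lysates paired as a replicate block, Pabpc1 passed in WT (adjusted p = 0.0403) and 7 members did in all. The Larp4b call in WT was lost when any 1 of the 4 WT libraries was left out (adjusted p 0.0756 to 0.147), and Pabpc4 passed without cKO late replicate 1 (0.0385) or replicate 2 (0.0378).

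Within cKO, 8 of 8 members changed, beside 58.1% of all genes, in the same directions as on average. The falls were -0.52 for Pabpc1 (SE 0.18, adjusted p = 0.0336), -0.47 for Pabpc4 (SE 0.15, adjusted p = 0.0271), -0.84 for Pabpn1 (SE 0.094, adjusted p = 0.000281), -0.53 for Paip1 (SE 0.10, adjusted p = 0.00267) and -1.56 for Paip2 (SE 0.15, adjusted p = 0.000211). The rises were 0.88 for Larp1 (SE 0.10, adjusted p = 0.000318), 0.39 for Larp4 (SE 0.11, adjusted p = 0.0126) and 0.29 for Larp4b (SE 0.096, adjusted p = 0.0291). The count was 5 with cKO early replicate 1 or cKO late replicate 2 left out, as Pabpc1 (-0.35 in either case), Pabpc4 (-0.48 and -0.27) and Larp4b (0.24 and 0.21) no longer passed. Without cKO early replicate 2 Pabpc4 (adjusted p = 0.0992) and Larp4 (0.0754) lost their calls, and without cKO late replicate 1 Larp4 did (0.0595). Pabpc1 in cKO was -0.19 (adjusted p = 0.366) under quantile normalization and also failed without scaling (-0.39, adjusted p = 0.0811), without a filter on low values (0.058) and without a trend (0.0551), and Pabpc4 failed without scaling (-0.35, adjusted p = 0.068).

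Between genotypes no member passed the threshold. The counts were 0 of 8 in early polysomes (0.0435% of all genes passed), 0 of 8 in late polysomes (0.0124%) and 0 of 8 on lysate means, which average a lysate's 2 fractions (0.00621%), by limma. At an unadjusted p under 0.05 there were 1, 0 and 0 members, beside 1071, 1506 and 1823 of the 16097 genes. With voom from limma on whole reads inferred from the TPM steps there were likewise 0 members. In early polysomes the cKO-minus-WT difference ran from -0.25 (Larp1) to 0.19 (Pabpn1), with 95% intervals between -0.48 and 0.45 over the members. In late polysomes it ran from -0.12 (Pabpc1) to 0.19 (Paip1), with intervals between -0.53 and 0.43. Changes between 0.694 and 1.36 times are thus inside at least 1 member's interval.

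The differences nearest to 0 in early polysomes were those of Paip2 (0.0016, 95% interval -0.35 to 0.35) and Paip1 (-0.0090, 95% interval -0.25 to 0.23). Pabpc1 differed by 0.044 in early (95% interval -0.36 to 0.45) and -0.12 in late polysomes (-0.53 to 0.28). In early polysomes the WT and cKO libraries did not overlap for 2 members, Larp1 (given next) and Pabpn1, beside 37.1% of all genes. Pabpn1 had 241 and 262 against 283 and 290 scaled TPM, a difference of 0.19 log2 (SE 0.094, adjusted p = 0.781). In late polysomes this held for 1 member, Paip1, beside 40.7% of all genes, with 36.3 and 35.3 against 41.6 and 40.6 scaled TPM and a difference of 0.19 log2 (SE 0.10, adjusted p = 0.606). Both had overlapping genotypes in the other fraction.

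**Figure D4:**
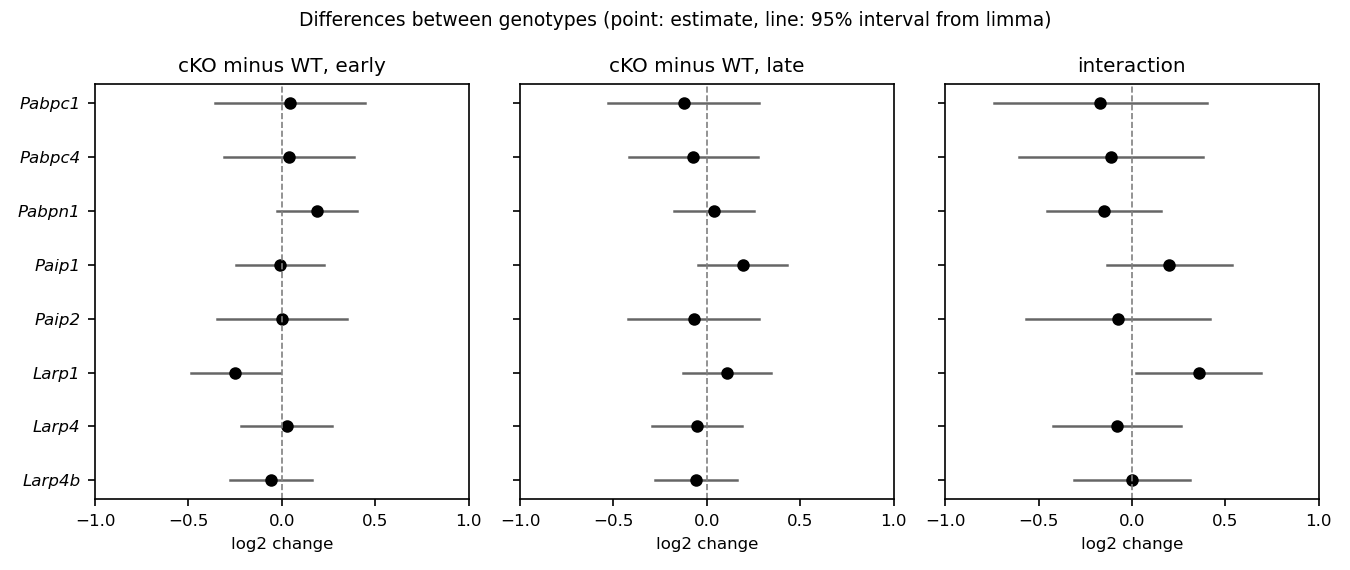
Differences between genotypes of each member as log2 changes (horizontal axes), for cKO minus WT in early polysomes, in late polysomes and for their difference (the interaction), with points for estimates and lines for 95% intervals from limma. All intervals cross 0 except those of Larp1 in early polysomes (-0.48 to -0.011) and in the interaction (0.022 to 0.69), neither of which passed after adjustment over all genes.

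Larp1 had the largest difference between genotypes of the 8 members, in early polysomes. Its early libraries held 79.3 and 75.2 scaled TPM in WT and 68.2 and 61.6 in cKO, without overlap, a difference of -0.25 (SE 0.10, adjusted p = 0.74). In late polysomes WT (106 and 116) and cKO (114 and 127) overlapped, at 0.11 (SE 0.10, adjusted p = 0.774). Its late-minus-early change was 0.42 and 0.63 in the WT lysates and 0.73 and 1.03 in the cKO lysates. The difference of these changes was 0.36 (SE 0.15, 95% interval 0.022 to 0.69, adjusted p = 1.0). It ranged from 0.28 to 0.43 over the alternatives run, with adjusted p from 0.577 to 1.0. No member passed in this interaction (0 of 8, beside 0.00621% of all genes), and Larp1 was the 1 member with an unadjusted p under 0.05 (459 genes over all tested). The other 7 members had interactions from -0.17 (Pabpc1) to 0.20 (Paip1).

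The order of the members' levels changed with the fraction. Pabpc1 had the highest group mean in all 4 groups. In early polysomes it was followed by Paip2, whose libraries overlapped those of Pabpc1 in both genotypes, and then by Pabpn1, Larp4b, Larp1, Paip1, Pabpc4 and Larp4. In cKO early libraries Larp1 and Paip1 overlapped as well, and the other neighbours did not. In late polysomes Pabpn1 held the rank after Pabpc1 and Paip2 the next. Paip2 overlapped Pabpn1 and Larp4b in WT late libraries. In cKO late libraries Paip2, Larp1 and Larp4b all overlapped each other. Larp4 stood under Pabpc4 in early polysomes (21.4 ± 1.19 against 24.5 ± 2.05 scaled TPM in WT, SD, n = 2 each) and above it in late polysomes (29.99 ± 0.88 against 18.9 ± 1.72 in WT). The same exchange was seen in cKO (21.8 ± 1.18 against 25.1 ± 0.20, then 28.9 ± 1.36 against 18.1 ± 3.70).

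Of 11 further family genes, 9 were in the table and 8 were tested, with Pabpn1l left out for low values and Pabpc2 and Pabpc6 without a row. Between late and early polysomes 2 rose, 2 fell and 4 did not pass, beside 34.3% up and 34.6% down over all genes. The median was 0.005 log2 beside -0.011 over all genes. The rises were Ssb, the La protein that binds the ends of RNA polymerase III transcripts (0.89, SE 0.080, adjusted p = 3.55e-05), and Larp7, which binds the 7SK RNA (0.57, SE 0.092, adjusted p = 0.000644). The falls were Paip2b, the paralog of Paip2 (-0.85, SE 0.11, adjusted p = 0.000169), and Pabpc1l (-0.79, SE 0.20, adjusted p = 0.00805). Pabpc1l averaged 1.15 TPM, and without genes under a mean of 5 TPM the count of falls was 1. Larp1b, the paralog of Larp1, was at 53.3 to 62.9 TPM and changed by -0.084 (SE 0.074, adjusted p = 0.334). The paralogs Paip2 and Paip2b were both lower in late polysomes, whereas of Larp1 and Larp1b one passed the test and the other did not; the difference within pairs was not tested.

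Over all genes 34.3% rose and 34.6% fell, the shares beside which the counts of each list stand. Of 11 genes for cap-complex and termination factors that work with poly(A)-binding protein, 7 rose, 3 fell and 1 did not pass. The median was 0.58 log2. The termination factors Gspt2 (0.94, SE 0.13, adjusted p = 0.000292) and Gspt1 (0.89, SE 0.091, adjusted p = 5.88e-05) rose most. Eif4e, which binds the cap (-0.93, SE 0.065, adjusted p = 1.96e-05), and Eif4g2, an eIF4G relative without the eIF4E site (-0.88, SE 0.096, adjusted p = 7.78e-05), fell most. Among 14 deadenylation genes 6 rose, 6 fell and 2 did not pass, with a median of -0.13. The scaffold Cnot1 (0.83, SE 0.11, adjusted p = 0.000199) and the ribonuclease gene Parn (0.90, SE 0.11, adjusted p = 0.00015) rose. The catalytic subunit Cnot7 (-1.03, SE 0.10, adjusted p = 5.67e-05) and its partner Btg1 (-0.99, SE 0.092, adjusted p = 3.89e-05) fell. Btg1 has a coding sequence of 513 nt, in the class of 111 to 555 nt with a median of -1.12. Genes of all 6 lists were ranked by change without regard to coding length. Of 18 cleavage and polyadenylation genes 9 rose, 4 fell and 5 did not pass, with a median of 0.29. The scaffold Sympk (1.29, SE 0.11, adjusted p = 3.37e-05) and Cpsf1 (1.10, SE 0.17, adjusted p = 0.000455) rose most. The poly(A) polymerase Papola (-0.76, SE 0.074, adjusted p = 4.74e-05) and Nudt21, of cleavage factor I (-0.76, SE 0.083, adjusted p = 8.09e-05), fell most.

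Targets and regulators of Larp1 were mixed. Of 18 listed symbols of TOP mRNAs outside the Rpl and Rps genes, 17 were in the table and tested. Gnb2l1 and Rack1, both listed, are names of the same gene. Fau, also listed, encodes a fusion of a ubiquitin-like and a ribosomal protein. Of the 17 tested, 4 rose, 6 fell and 7 did not pass, beside 34.3% up and 34.6% down over all genes. Their median was 0.047. Eef1d (0.71, SE 0.070, adjusted p = 5.15e-05) and Npm1 (0.54, SE 0.077, adjusted p = 0.000323) rose most, and Fau (-1.16, SE 0.16, adjusted p = 0.000244) was among those that fell. Under quantile normalization 7 rose in place of 4. Of 8 genes of mTORC1 and its translational substrates, 3 rose and 5 fell, with a median of -0.51. The mTORC1 subunits Rptor (0.96, SE 0.096, adjusted p = 5.56e-05) and Mlst8 (0.82, SE 0.082, adjusted p = 5.33e-05) rose most. The eIF4E inhibitor Eif4ebp1 (-1.01, SE 0.095, adjusted p = 4.21e-05) and the mTORC1 subunit Akt1s1 (-0.78, SE 0.087, adjusted p = 8.97e-05) fell most. In early, late, lysate-mean and interaction comparisons of genotype, 0 genes of these 6 lists passed by limma, with 2, 6, 5 and 1 of their genes at an unadjusted p under 0.05, beside 1071, 1506, 1823 and 459 of the 16097 genes.

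**Figure D5:**
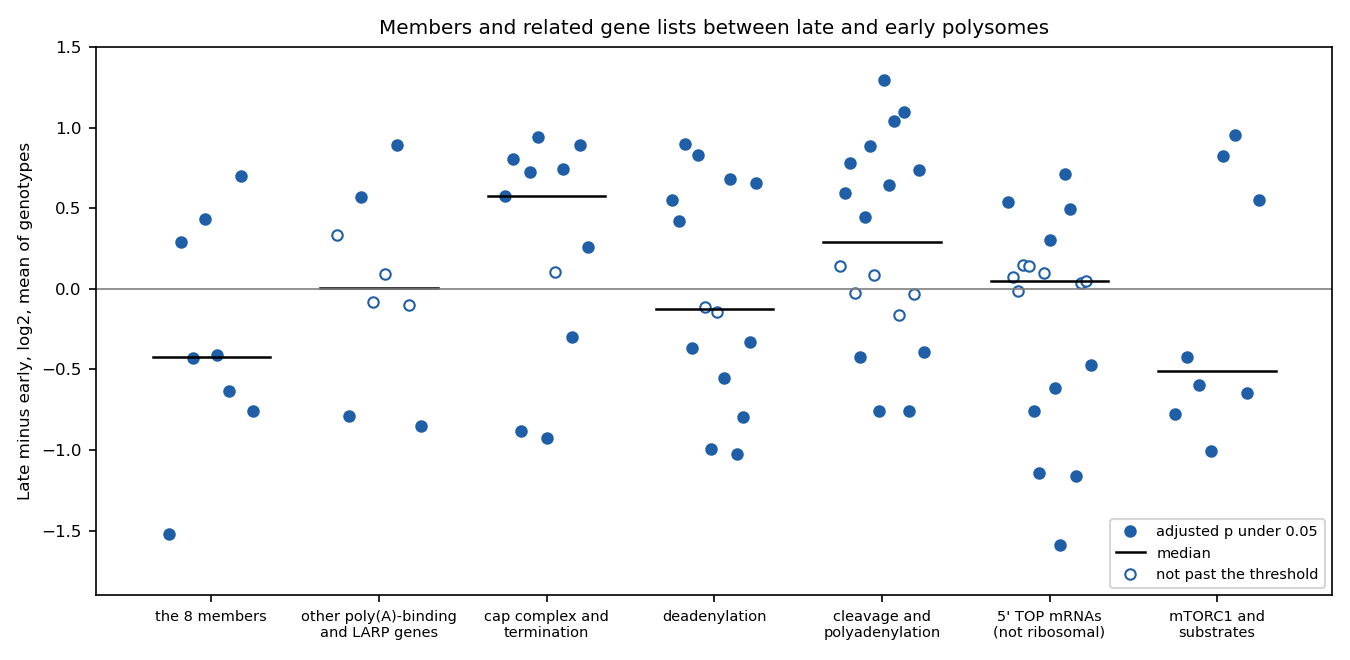
Average late-minus-early log2 change (vertical axis) of the 8 members and of each tested gene in the 6 related lists, with filled points for adjusted p under 0.05, open points for the others and a bar at each median. The members separate into 3 above and 5 below 0, and each list holds genes on both sides of 0, with medians from -0.51 (mTORC1) to 0.58 (cap complex and termination).

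Over the 8 libraries, the members fell into 2 patterns, given here as a description, since the points share 4 lysates and the fraction. Pearson's r of log2(scaled TPM + 1) was 0.69 to 0.98 between members of the poly(A)-binding and PAIP group and 0.86 to 0.91 between the LARPs. Between the groups it was -0.98 to -0.65, weakest for Pabpc1 and Larp4. Among 11039 genes with a mean TPM of at least 10, those closest to Pabpc1 were 2900097C17Rik (r = 0.983), Uap1 (0.980) and Zfp612 (0.979). Those closest to Larp1 were Mmp15 (0.998), Lrig1 (0.996) and Luzp1 (0.995), and those closest to Larp4 were Glul (0.997), Morf4l2 (0.996) and Camsap3 (0.996).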

How the data were processed

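RNA of early and late polysomes was measured in 8 libraries, prepared with a stranded total RNA kit for low input per the labels' protocols. The authors deposited 1 table of TPM values; the submitters' processing notes name mm10, FastQC, cutadapt, STAR and DESeq2 without versions or roles. The counting tool, annotation and filters are not given in the sources used here. Every column sums to 1000000. TPM states no depth, but the values of each of the 19783 genes above 0 in at least 2 libraries were whole multiples of a step (100%, tolerance 0.001), which gave the inferred reads. Many steps were tried per gene, so for a gene above 0 in few libraries a match can arise by chance. The 100% therefore does not show that the reads of such genes were recovered. The inferred reads cover counting error only and served 1 alternative test.

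Median-ratio factors (0.940 to 1.07) were applied to make libraries comparable. Tests ran on log2(scaled TPM + 1), computed here from the deposited TPM, in limma 3.58.1 (R 4.3.3); with this pseudocount the fold change of a low gene comes out too small. The 4 groups were fitted together over 16097 genes, with a mean-variance trend, two-sided p-values and Benjamini-Hochberg adjustment at 0.05. Genotype was also tested on 2 against 2 lysate means. Early and late libraries were paired by lysate in an alternative fit: the library names give both the same lysate, although their deviations from the group means correlated at only 0.0863 in WT and 0.0502 in cKO. The deviations of WT and cKO libraries that share a number correlated at 0.332 (early) and 0.143 (late), but no label says that a number marks a shared batch. The fits were tested on simulated data. Coding lengths came from GENCODE on GRCm38 for 91.2% of the tested genes and start sequences from RefSeq on GRCm38.p6. Named genes were all members, Mex3a, up to 2 rises and 2 falls per related list, and the 3 genes most like Pabpc1, Larp1 and Larp4. The members, lists and tests were chosen with earlier results of these data known. Alternatives were other pseudocounts, filters, scalings and fits, and leaving out each library. The Cre line, 1 start sequence and 1 listed gene are not reported here. Figures were drawn with matplotlib 3.10.9.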

Additional observations from a re-analysis of the deposited data

How the results depend on the processing

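The directions of the fraction changes held for all 8 members, on average and within each genotype, in every alternative run, and the calls that turned are given with the results or here. Pabpc4 passed in WT with voom (adjusted p = 0.0438), Larp4b failed without a trend in WT (0.0589) and cKO (0.0557), and with only the libraries compared Pabpc1 (0.0589), Pabpc4 (0.063) and Larp4b (0.0777) failed in cKO. Members called in cKO numbered 5 with only the libraries compared and 5 to 8 with 1 library left out; on average over genotypes they numbered 7 to 8 and in WT 5 to 7. With lysates paired as a replicate block, 8 members passed on average, 7 in WT, 8 in cKO and 0 in the genotype and interaction comparisons, so that of the members the block changed 1 call, Pabpc1 in WT. The count of falls among the other family genes was 1 with a mean TPM of at least 5, since fewer genes were tested, and the count of rises among TOP mRNAs was 7 under quantile normalization, where the cause was not tested. The WT count over all genes (8826) was lower when any 1 WT library was left out. This held for WT early replicate 2, the library with the conflicting tag, and for each of the others.

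No member passed between genotypes in any alternative, and the signs of small differences turned. In early polysomes without scaling they were -0.013 for Pabpc1, -0.015 for Pabpc4, -0.055 for Paip2 (-0.046 under quantile normalization) and -0.028 for Larp4. In late polysomes without scaling Pabpn1 was -0.00077. With voom, lysate means gave 0.019 for Pabpc4 and 0.053 for Paip2, and the interaction of Larp4b was -0.0044. With 1 library left out, early differences ran from -0.13 to 0.21 for Pabpc1, -0.043 to 0.12 for Pabpc4, -0.10 to 0.082 for Paip1, -0.059 to 0.062 for Paip2 and -0.027 to 0.081 for Larp4. Late differences ran from -0.30 to 0.051 for Pabpc1, -0.27 to 0.13 for Pabpc4, -0.022 to 0.097 for Pabpn1, -0.26 to 0.12 for Paip2 and -0.14 to 0.017 for Larp4b. With a whole lysate left out, which leaves 1 in its genotype, assumed to vary like the other 2, lysate means ran from -0.21 to 0.13 for Pabpc1, -0.11 to 0.079 for Pabpc4, -0.13 to 0.056 for Paip2, -0.062 to 0.037 for Larp4 and -0.13 to 0.0057 for Larp4b. With 1 library left out, interactions ran from -0.34 to 0.0072 for Pabpc1, -0.31 to 0.087 for Pabpc4, -0.26 to 0.12 for Paip2, -0.077 to 0.077 for Larp4b and -0.50 to 0.017 for Mex3a. The cause was not tested. Over all genes, voom called 12, 15, 58 and 0 genes in early, late, lysate-mean and interaction comparisons, against 7, 2, 1 and 1 in the main test, and a replicate block by number called 85 on lysate means. With 2 lysates per genotype, the 95% intervals set what could be seen.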
